A study of Mus musculus with 9 samples.

Results

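The 8 long non-coding RNA genes followed here in neutrophils of tumor-bearing mice act in the nucleus or carry small nucleolar RNAs in their introns. They are Malat1, Neat1, Gas5, Snhg1, Snhg5, Snhg8, Snhg12 and 1110038B12Rik. The genes were chosen by name from the deposited expression table, and 7 of the 8 had a row among its 46517 genes. No row carried the name Snhg1. Of the 7, 6 passed the filter on low values (log2 FPKM over 0 in at least 3 libraries), as did 7794 genes in all. The exception was Snhg12.

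Neutrophils were sorted from the bone marrow, the blood and the pancreatic tumor of C57BL/6 mice, and each compartment was represented by 3 RNA sequencing libraries. All mice carried an orthotopic pancreatic ductal adenocarcinoma (PDAC), grown from tumor cells of the KPC mouse model injected into the pancreas, and were analysed on day 27. Cells were gated as live CD45+ cells without CD3, B220 or NK1.1 and with Ly6G and Ly6C. The bone marrow samples are labelled Ly6G.hi and the others Ly6G+, each library was made from pooled mice, and no compartment of healthy mice was analysed here. The study describes the bone marrow, blood and tumor neutrophils as taken from the same mice, so the compartments may share animals. By the study's methods, tumors were dissociated with enzymes and blood was freed of red cells, so that tissue handling and compartment cannot be told apart.

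Malat1 is an abundant RNA of nuclear speckles, the bodies in which splicing factors gather. Neat1 is the scaffold on which paraspeckles form, bodies that hold RNA-binding proteins and retain some RNAs in the nucleus. Gas5, the Snhg genes and 1110038B12Rik are snoRNA host genes: their introns are trimmed to small nucleolar RNAs, which guide 2'-O-methylation (C/D box) or pseudouridylation (H/ACA box) of ribosomal RNA, while several of the spliced hosts are exported, bound by ribosomes and destroyed by nonsense-mediated decay. Several host genes begin with a pyrimidine tract of the kind found in ribosomal protein genes.

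The snoRNA hosts Gas5, Snhg5, Snhg8 and 1110038B12Rik were higher in the tumor than in both other compartments, whereas Malat1 and Neat1 were called higher in the tumor against bone marrow alone. Against blood, 4 of the 6 members tested were called higher in tumor (Gas5, Snhg5, Snhg8 and 1110038B12Rik) and 0 lower, where 28.1% of all genes tested were called higher and 34.5% lower (limma, adjusted p under 0.05). Against bone marrow, 6 of 6 were called higher and 0 lower, where 22.4% of all genes were called higher and 32.9% lower. Blood against bone marrow gave 1 call higher (Malat1) and 1 lower (1110038B12Rik), beside 20.6% and 23.6% of all genes. All 6 estimates were positive in both tumor comparisons, so that no member was lower at an unadjusted p under 0.05 or with limma-voom either. Both tumor comparisons use the same tumor libraries. 1110038B12Rik passed the filter only through its tumor libraries, so these counts describe the members that were tested and are not support. Counted by library without a model, all 3 tumor libraries were above all 3 blood libraries for 4 of the 6 members (29.9% of all genes tested) and above all 3 bone marrow libraries for 6 of 6 (26.2%). All blood libraries were above all bone marrow libraries for 1 of 6 members (27.8%).

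The libraries held 4580807 to 7949367 reads on genes, and their log2 values correlated at 0.875 to 0.933 within compartments. The deposited library sizes were scaled: with plain totals in their place, the median log2 fold change of all genes moved from -0.17 to 0.24 in tumor against blood and from -0.21 to 0.21 in tumor against bone marrow, and by 0.0034 in blood against bone marrow. Markers of other cells differed between the compartments. The summed level of 11 tumor epithelium markers was 3097 to 6584 RPM (reads scaled to the library total) in tumor, 21.4 to 142 in blood and 8.02 to 11.6 in bone marrow, and 10 fibroblast markers reached 1127 to 1388 in tumor against at most 9.99 elsewhere. The 10 pancreatic acinar markers, of which 1 had no read, summed to 652 to 2921 in tumor and at most 7.32 elsewhere. The neutrophil label was met in every library: 12 mature neutrophil genes summed to 15530 to 17970 RPM in tumor, 41520 to 42430 in blood and 48420 to 49900 in bone marrow. The 16 genes of immature neutrophils and granulocyte progenitors summed to 7597 to 11870 in tumor, 3229 to 3935 in blood and 81600 to 89450 in bone marrow. In blood, markers of other cells were also higher than elsewhere: the 8 platelet markers summed to 913 to 1193 RPM (at most 112 in the other compartments), the 10 macrophage and monocyte markers to 1313 to 1505 (at most 641), the 8 red cell markers to 254.5 to 499 (at most 158.5) and the 10 lymphocyte markers to 85.5 to 155 (at most 63.3). The 8 endothelium markers summed to 14.7 to 20.5 in bone marrow, to 85.5 to 123 in blood and to 105.3 to 136 in tumor. The part of these cells in the results on the members was not tested, and in bulk RNA fewer cells of a type and less RNA per cell cannot be told apart.

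Levels per length (FPKM, with the gene span as length) placed Malat1 and then Neat1 first among the members in each compartment. In reads not divided by length, Neat1 came before Malat1. In bone marrow, the mean log2 FPKM was 5.25 ± 0.40 for Malat1 (SD, n = 3, as in all values of this kind) and 4.45 ± 0.16 for Neat1, followed by Gas5 at 3.22 ± 0.12. Snhg5 at 1.76 ± 0.64 and Snhg8 at 1.65 ± 0.48 came next and differed by less than their spread. 1110038B12Rik stood at 0.54 ± 0.63 and Snhg12 last at -2.14 ± 0.73. The order was the same in tumor, where the lower host genes moved closer together: Snhg5 at 3.30 ± 0.34, Snhg8 at 2.92 ± 0.34 and 1110038B12Rik at 2.63 ± 0.40 were neighbours with overlapping ranges. In blood, Snhg8 at 2.00 ± 0.49 and Snhg5 at 1.76 ± 0.65 changed places within their spread, and 1110038B12Rik at -1.28 ± 0.86 stood close to Snhg12 at -1.39 ± 1.19.

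**Figure D1:**
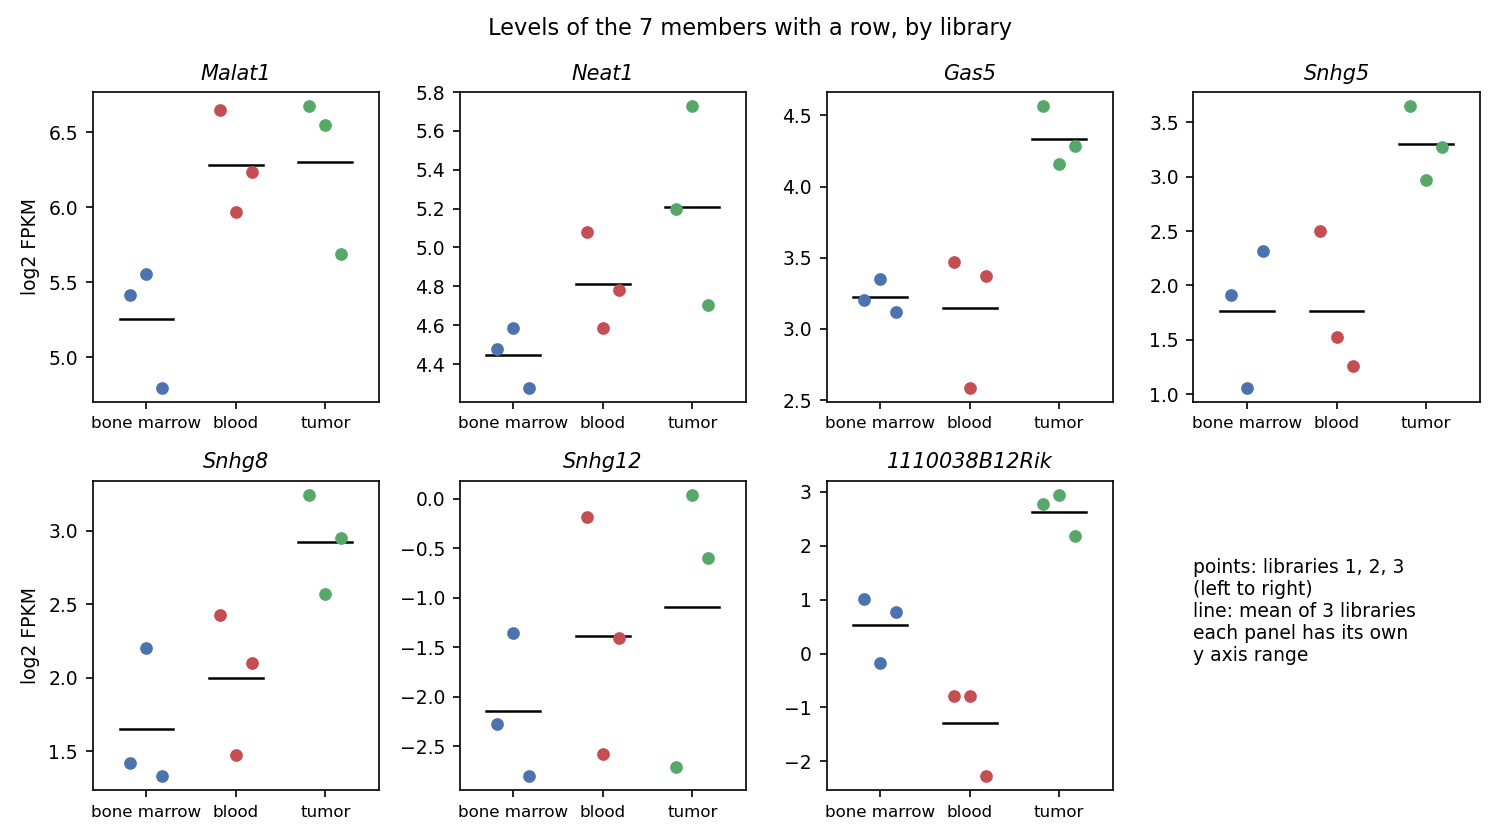
Log2 FPKM (y axis, its own range in each panel) of the 7 members with a row, in the 3 libraries of bone marrow, blood and tumor (x axis); points are libraries and lines are means of 3. The tumor points of Gas5, Snhg5, Snhg8 and 1110038B12Rik lie above every other point of their panel, and those of Malat1 overlap with blood.

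1110038B12Rik differed most between the compartments. This host gene lies on the minus strand of chromosome 17 (chr17:34950238-34952471, GRCm38) and encloses the snoRNA genes Snord52 and Gm25744. Its log2 FPKM was 1.02, -0.17 and 0.77 in bone marrow, -0.78, -0.79 and -2.27 in blood, and 2.76, 2.95 and 2.18 in tumor. The 3 compartments did not overlap, with blood lowest and tumor highest. The reads behind these values were 30, 11 and 25 in bone marrow, 5, 7 and 2 in blood, and 94, 130 and 80 in the tumor, so that the blood level in particular rests on few reads. The log2 fold change was 3.91 ± 0.49 (SE) in tumor against blood (limma, adjusted p = 0.000246), or 15.04-fold. Over the alternative settings this value ranged from 2.32, with a constant of 1 added, to 4.34, with plain library totals. In tumor against bone marrow the log2 fold change was 2.09 ± 0.49 (adjusted p = 0.00733), or 4.27-fold. In blood, 1110038B12Rik fell by 1.82 on the log2 scale against bone marrow (adjusted p = 0.0181). Outside the tumor, 2 of the other 6 libraries were over the filter's limit, and with no filter 1110038B12Rik was also called higher in both tumor comparisons (adjusted p = 0.000297 and 0.00974). The call of blood against bone marrow was lost with limma-voom on the reads (adjusted p = 0.0714), without bone marrow library 1 (0.0633) and without bone marrow library 3 (0.0597).

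The snoRNAs inside 1110038B12Rik are shown because they are the known products of this gene, and the first stretch below is the start of the host itself. In the start site stretch, from the RefSeq promoter table (GRCm38.p6), the 15 bases before and 35 bases from the annotated start are given 5′ to 3′ with a run of 7 or more pyrimidines in capitals. In the snoRNAs, from GENCODE M21 transcripts, capitals mark the letters TGATGA within the first 30 bases and CTGA within the last 25, the cores of the C and D boxes, which 20.8% of all 1507 annotated snoRNA transcripts hold.
1110038B12Rik start, chr17:34952437-34952486, minus strand: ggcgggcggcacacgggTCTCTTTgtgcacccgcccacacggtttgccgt
Snord52, chr17:34950952-34951017, minus strand: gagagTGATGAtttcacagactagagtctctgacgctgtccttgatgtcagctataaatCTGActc
Gm25744, chr17:34952013-34952075, minus strand: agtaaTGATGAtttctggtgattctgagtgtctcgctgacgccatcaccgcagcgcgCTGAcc

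Gas5, the host gene with the most reads, rose in tumor against both other compartments. It lies on the plus strand of chromosome 1 (chr1:161034422-161038539) and encloses 10 annotated snoRNA genes, 2 of which, both named Snord80, overlap. Its spliced RNA is known to accumulate in growth-arrested cells. Log2 FPKM was 3.20, 3.35 and 3.12 in bone marrow, 3.47, 2.59 and 3.37 in blood, and 4.57, 4.16 and 4.28 in tumor. The tumor libraries were the 3 highest, and bone marrow lay within the range of blood. The difference was 1.19 ± 0.23 (SE) in tumor against blood (limma, adjusted p = 0.00256), about 2.29-fold. With bone marrow it was 1.11 ± 0.23 (adjusted p = 0.00443), about 2.16-fold. Between blood and bone marrow it was -0.08 (adjusted p = 0.815). The first 428 bases of the Gas5 span overlap Zbtb37 on the opposite strand. The library kit does not keep strand, so reads of the overlap cannot be assigned to either gene, and the part of the overlap in the Gas5 values was not tested. The Zbtb37 row held 41 to 87 reads and the Gas5 row 138 to 636.

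Snhg5 and Snhg8 were also highest in tumor, with fewer reads. Snhg5 (chr9:88521050-88522929, minus strand), host of Snord50a and Snord50b, had log2 FPKM values of 1.91, 1.06 and 2.32 in bone marrow, 2.504, 1.524 and 1.264 in blood, and 3.65, 2.97 and 3.27 in tumor. The tumor libraries, with 111 to 146 reads, lay above the other libraries, with 21 to 62 reads, and the other compartments overlapped. Snhg5 rose in tumor by 1.53 ± 0.41 (SE) on the log2 scale against blood (limma, adjusted p = 0.0122) and by 1.53 ± 0.41 against bone marrow (adjusted p = 0.0142), about 2.89-fold in each case. Blood and bone marrow means differed by 0.0011 (adjusted p = 1.0).

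Snhg8 (chr3:123507552-123508404, minus strand), host of the H/ACA snoRNA Snora24, had values of 1.42, 2.20 and 1.33 in bone marrow, 2.43, 1.47 and 2.10 in blood, and 3.25, 2.57 and 2.95 in tumor. All tumor libraries were again highest, although tumor library 2 was only slightly above blood library 1, and the reads numbered 38 to 52 in tumor and 13 to 22 elsewhere. Against bone marrow the difference was 1.27 ± 0.33 (SE; limma, adjusted p = 0.0115), or 2.41-fold. Against blood it was 0.92 ± 0.33 (adjusted p = 0.0383), or 1.89-fold, and this call was the least stable among the hosts: it held in 14 of 22 alternative settings, with adjusted p up to 0.12. It was lost without bone marrow library 1 (0.0505), blood library 2 (0.12) or 3 (0.0682), and tumor library 1 (0.115) or 3 (0.0852). The same held with no filter (0.0541), with limma-voom (0.0856) and with the replicate block (0.0664).

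Snhg12 (chr4:132308623-132311024, plus strand) encloses 5 snoRNA genes and had too few reads for a comparison. It gathered 3, 5 and 2 reads in bone marrow, 8, 2 and 4 in blood, and 2, 18 and 12 in the tumor. Tumor library 1 was as low as the lowest libraries of the other compartments, so the compartments overlapped. With no filter on low values, its log2 fold change was 0.30 in tumor against blood (limma, adjusted p = 0.821), and with bone marrow it was 1.05 (adjusted p = 0.392). No difference was detectable at this depth.

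The start sites of the host genes are shown for the pyrimidine tract. Several host genes are known to carry it, so its presence here is a description and no support. The table held windows for 7 members, 9 windows in all, and none for Neat1. A run of at least 7 C or T on the transcribed strand that overlaps the 10 bases either side of the start was present in 6 of the 9 windows and in 5 members, against 19.7% of all 32851 windows and 48.6% of the 70 windows of ribosomal protein genes. The 2 windows of 1110038B12Rik hold the same run. The runs are in capitals below.
Snhg1, chr19:8723472-8723521, plus strand: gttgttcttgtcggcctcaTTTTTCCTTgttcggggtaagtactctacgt
Snhg5, chr9:88522863-88522912, minus strand: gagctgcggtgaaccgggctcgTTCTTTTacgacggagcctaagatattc
Snhg8, chr3:123508302-123508351, minus strand: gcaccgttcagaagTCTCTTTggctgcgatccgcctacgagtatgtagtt
Snhg12, chr4:132308663-132308712, plus strand: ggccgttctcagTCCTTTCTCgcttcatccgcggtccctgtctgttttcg
Gas5, second start, chr1:161035151-161035200, plus strand: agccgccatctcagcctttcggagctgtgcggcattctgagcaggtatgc

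The Gas5 start has a shorter tract, shown in lower case, that this rule does not count. A second rule, added after the windows were seen, asked for a C close to the start followed by 4 or more C or T. It was met in 5 of the 9 windows, Gas5 included but not Snhg1 or Snhg5, against 18.3% of all windows. Malat1, without a tract, and Snhg5, with one by the first rule, were both called higher in tumor than in bone marrow. The members are too few to compare those with and without a tract.

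Malat1 and Neat1, which lie next to each other on chromosome 19, had their lowest means in bone marrow, and their tumor libraries overlapped with blood. Malat1 (chr19:5795690-5802672, minus strand) had log2 FPKM values of 5.41, 5.55 and 4.80 in bone marrow, 6.65, 5.96 and 6.23 in blood, and 6.67, 6.55 and 5.68 in tumor. Every blood and tumor library was above every bone marrow library, while blood and tumor overlapped and tumor library 3 was the lowest of both. Malat1 rose in tumor by 1.05 ± 0.32 (SE) against bone marrow (limma, adjusted p = 0.0239), or 2.07-fold. In blood it rose by 1.03 ± 0.32 against bone marrow (adjusted p = 0.0322), or 2.04-fold. Between tumor and blood the difference was 0.02 ± 0.32 (adjusted p = 0.964).

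The Malat1 calls rested on single libraries. Tumor against bone marrow was not called without bone marrow library 3 (adjusted p = 0.0772), tumor library 1 (0.0768) or tumor library 2 (0.0734). Blood against bone marrow was not called without bone marrow library 1 (0.0597), bone marrow library 3 (0.104), blood library 1 (0.0981) or blood library 3 (0.0688). Each left-out fit kept the direction.

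Malat1 is shown by its longest run of A, because the libraries were primed on poly(A) and mature Malat1 is known to end in an encoded A-rich tract rather than in an added poly(A) tail. In the annotated transcript of 6983 bases, the run of 12 A lies at positions 6674 to 6685, 298 bases before the annotated end, and is in capitals with 25 bases on either side.
Malat1, chr19:5795963-5796024, minus strand: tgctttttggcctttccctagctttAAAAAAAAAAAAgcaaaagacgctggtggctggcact

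Neat1 (chr19:5824708-5845478, minus strand) had log2 FPKM values of 4.48, 4.59 and 4.28 in bone marrow, 5.08, 4.58 and 4.78 in blood, and 5.20, 5.73 and 4.70 in tumor. Tumor library 2 was the highest, with 8325 reads, and tumor library 3 lay within the range of blood. Against bone marrow, Neat1 rose in tumor by 0.76 ± 0.25 (SE) on the log2 scale (limma, adjusted p = 0.0331), or 1.70-fold, and this call held in 16 of 22 alternative settings. It was lost without any one of the bone marrow libraries (adjusted p = 0.0559 to 0.0963), without tumor library 1 (0.0716), without tumor library 2 (0.0753) and with only the 2 compartments in the fit (0.0582). Against blood, the difference of 0.40 ± 0.25 was not called (adjusted p = 0.204) but was called with plain library totals (0.84, adjusted p = 0.0116), with quantile normalization (0.90, adjusted p = 0.00639) and without tumor library 3 (0.65, adjusted p = 0.0312). Blood and bone marrow differed by 0.37 ± 0.25 (adjusted p = 0.278).

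The balance of the nuclear RNAs also varied between libraries. Neat1 minus Malat1 on the log2 FPKM scale was -1.47 ± 0.10 (SD, n = 3) in blood, -1.09 ± 0.34 in tumor and -0.81 ± 0.25 in bone marrow. Neat1 was thus below Malat1 per length in every library, and the gap was widest in blood on average. The lengths used were the full spans of 20771 bases for Neat1 and 6983 for Malat1. The Neat1 row does not tell apart transcripts of different length. In reads not divided by length, there were 1.002 to 2.077 Neat1 reads per Malat1 read. The order of the 2 RNAs therefore depends on the length used. Tumor library 1, at -1.47, lay within the blood range, whereas tumor libraries 2 and 3, at -0.82 and -0.98, lay near bone marrow. As a description over the 9 libraries, which differ in compartment and depth, Malat1 and Neat1 had a Pearson r of 0.842.

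**Figure D2:**
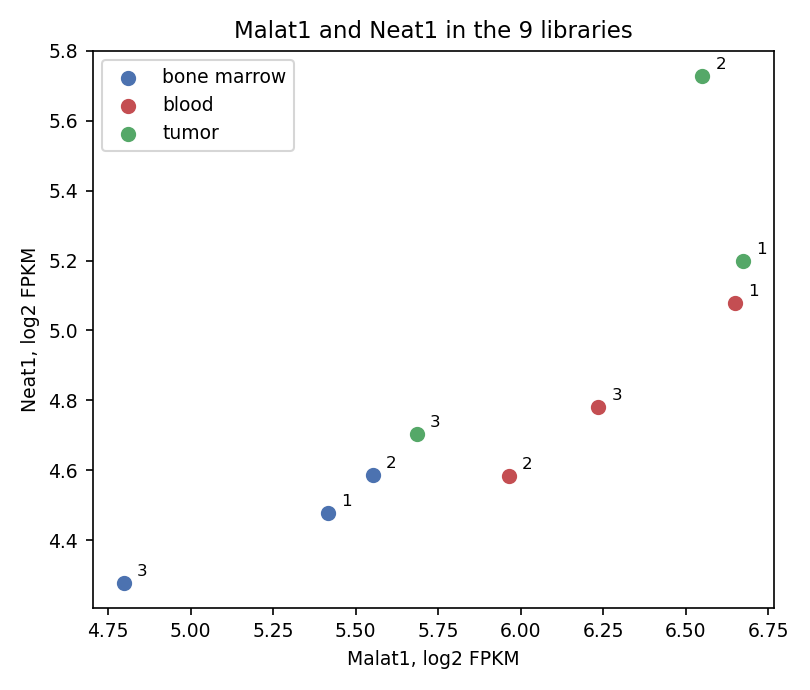
Neat1 (y axis) against Malat1 (x axis), both in log2 FPKM, for the 9 libraries, coloured by compartment and numbered by library. Bone marrow lies at the lower left, and tumor library 2 has the highest Neat1 value at a Malat1 value close to those of tumor library 1 and blood library 1.

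The plot of differences sets the members side by side. Under plain library totals each tumor difference was larger, by 0.43 to 0.45 for the 6 members tested, and all kept their direction.

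**Figure D3:**
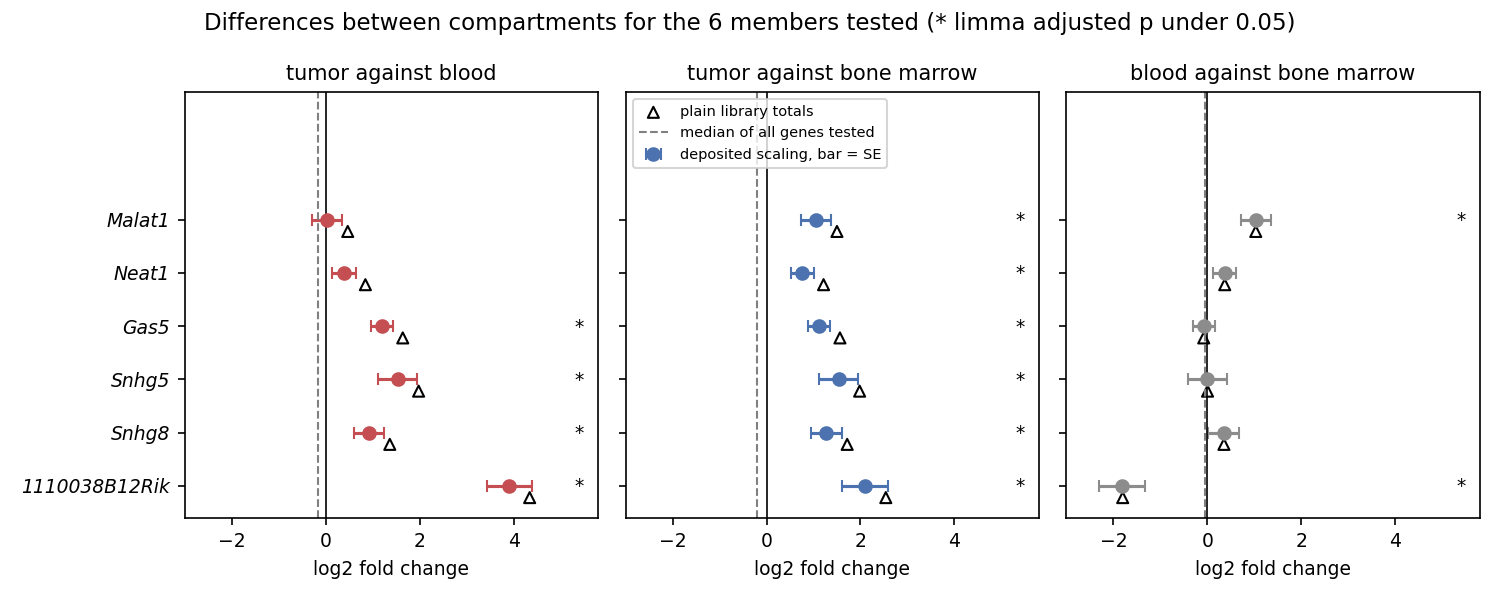
Log2 fold change (x axis) of the 6 members tested in the 3 comparisons; circles with bars are limma estimates ± SE on the deposited values, triangles are estimates with plain library totals, dashed lines are medians of all genes tested and stars mark adjusted p under 0.05. In tumor against blood, Gas5, Snhg5, Snhg8 and 1110038B12Rik carry stars and Malat1 (0.02) lies near 0.

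Snhg1 could be followed through its snoRNAs alone. The Snhg1 locus (chr19:8723475-8726443, plus strand, GENCODE M21) encloses 8 snoRNA genes, and all 8 rows held reads: 12, 5 and 28 in sum in bone marrow, 6, 2 and 16 in blood, and 33, 102 and 41 in the tumor. In RPM the sums were 9.0 ± 4.88 (SD, n = 3) in tumor, where blood had 1.49 ± 1.30 and bone marrow 1.98 ± 1.56. The 3 tumor libraries were the highest, and tumor library 2 was far above the other tumor libraries. Tested row by row on few reads, 3 of the 8 were called higher in tumor against blood (Snord22, Gm24452 and Gm25894) and 1 against bone marrow (Snord22), with 0 called lower. Over all genes, 28.1% and 22.4% were called higher. The Gm25894 call rests on 2, 3 and 4 reads in tumor and 0 in each blood library. With 1, 0 and 2 reads in bone marrow, its row passed the filter only through the tumor libraries, so this call is no support. Snord22, the C/D snoRNA with the most reads, rose by 2.29 ± 0.65 (SE) on the log2 scale against blood (limma, adjusted p = 0.0157) and by 2.21 ± 0.65 against bone marrow (adjusted p = 0.0213).

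The snoRNA rows inside the other host members held no counted reads. All 20 snoRNA genes inside Gas5, Snhg5, Snhg8, Snhg12 and 1110038B12Rik had rows, and 0 of the 20 rows held a read in any library. The small RNA rows inside Malat1 and Neat1 on the same strand also held 0 reads. Across the table, 6 of 132 snoRNA rows (4.55%) that lie within an exon of another listed gene on their strand held a read, against 88 of 410 (21.5%) within an intron. The study does not state how reads that lie on 2 genes were counted. Rows with 0 reads therefore do not show that these snoRNAs were absent. Whether reads on the Snhg1 snoRNA rows came from mature snoRNAs or from unspliced or spliced Snhg1 RNA was not tested, and the protocol, which primes on poly(A), does not aim at mature snoRNAs. The sequences below are examples of a snoRNA whose row held reads (Snhg1) and of snoRNAs whose rows held none (Snhg5, Snhg8 and Gas5). The C and D box cores are in capitals. For Snora24, capitals mark the letters ACA at most 8 bases from its end, present in 47.6% of annotated snoRNA transcripts.
Gm24452 in Snhg1, chr19:8724531-8724602, plus strand: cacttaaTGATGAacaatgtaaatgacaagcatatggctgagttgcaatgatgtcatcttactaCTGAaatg
Snord50a in Snhg5, chr9:88521529-88521600, minus strand: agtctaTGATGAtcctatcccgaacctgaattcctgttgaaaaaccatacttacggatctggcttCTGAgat
Snora24 in Snhg8, chr3:123507937-123508066, minus strand: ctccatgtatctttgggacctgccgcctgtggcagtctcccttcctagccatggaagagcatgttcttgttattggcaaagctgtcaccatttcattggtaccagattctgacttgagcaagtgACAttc
Snord47 in Gas5, chr1:161038082-161038158, plus strand: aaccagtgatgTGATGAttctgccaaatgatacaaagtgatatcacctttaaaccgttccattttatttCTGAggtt

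**Figure D4:**
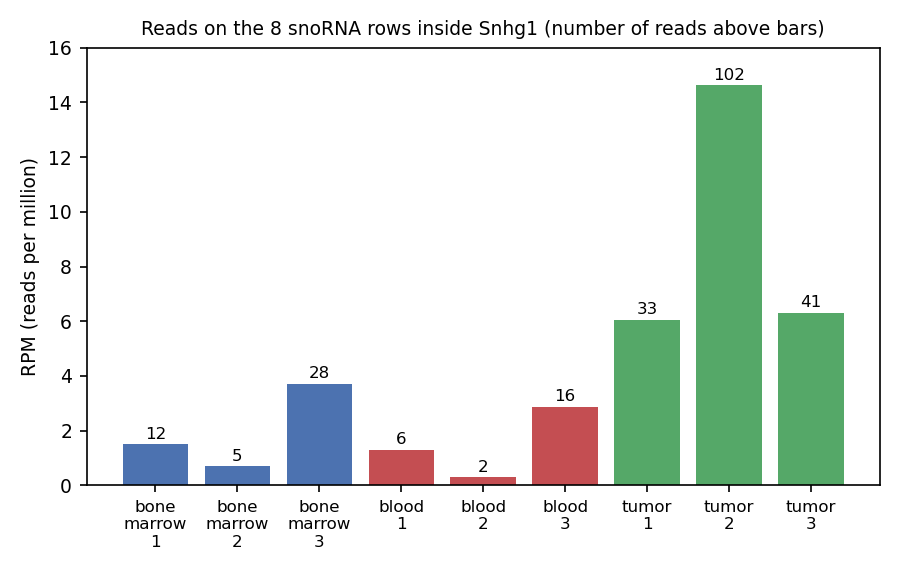
Summed level of the 8 snoRNA rows inside Snhg1 in RPM (y axis, from 0), in each of the 9 libraries (x axis), with the number of reads above each bar. The tumor bars, with 33, 102 and 41 reads, are the 3 highest.

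The order of the tumor libraries can be set beside their epithelial content. Tumor epithelium markers summed to 4125 RPM in tumor library 1, 3097 in library 2 and 6584 in library 3. Acinar markers summed to 982.5, 652 and 2921 RPM in the same libraries. Gas5, Snhg5 and Snhg8 were highest in tumor library 1, and 1110038B12Rik, Snhg12 and the Snhg1 snoRNA rows in tumor library 2. Malat1, Neat1 and 1110038B12Rik were lowest in tumor library 3. Gas5, Snhg5 and Snhg8 were lowest in tumor library 2, the one with the lowest epithelial sum, and no member was at its highest in library 3, the one with the highest. With 3 libraries this order is a description, and the part of epithelial or acinar RNA in the members' values was not tested.

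Genes with the profiles most like those of the members over the 9 libraries were found by Pearson correlation, given as a description. For Malat1 these were Ftl1 (r = 0.959), the ferritin light chain, Nxf1 (0.958), the main mRNA export receptor, Rel (0.950), an NF-kappaB subunit, Fnbp4 (0.950) and RP24-230L5.2 (0.948). For Neat1 they were Trpm7 (0.965), an ion channel with a kinase domain, Gm16894 (0.952), Gdap10 (0.945), Fnip1 (0.943) and Rbm25 (0.942), a splicing regulator. For the mean of the 4 snoRNA hosts tested they were Tmem176b (0.993), Cacfd1 (0.985), Wbp5 (0.981), Bag3 (0.980), a co-chaperone of Hsp70, and Coq10b (0.979). Among the members themselves, Gas5 was closest to Snhg8 (0.913), Snhg5 was close to 1110038B12Rik (0.816) and Gas5 (0.815), and Malat1 and 1110038B12Rik shared little (0.0706). All libraries of a compartment share its other differences, so that these coefficients mostly order genes by compartment means.

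Other non-coding snoRNA hosts were mostly too low to test. Of 16 listed, 12 had a row and 2 were tested. Snhg4 passed the filter only through the tumor libraries, so its call against blood (limma, adjusted p = 0.00517) is no support. It had 16, 12 and 21 reads in bone marrow, 7, 0 and 0 in blood, and 82, 47 and 97 in the tumor, and was not called against bone marrow (limma, adjusted p = 0.269). Snhg6 was called higher in tumor against blood (2.42 ± 0.65 on the log2 scale, adjusted p = 0.0119), and also when bone marrow was the reference (1.95, adjusted p = 0.034). Of the untested, Snhg17 held 51 to 89 reads in tumor and at most 24 elsewhere, and Snhg18 held 16 to 19 in tumor and 0 in every other library. Others did not follow: Snhg14 held 8, 9 and 0 reads in tumor and 10, 12 and 9 in blood. Snhg11 held 11, 5 and 0 in tumor and 1, 12 and 0 in blood. With no filter, 4 of 10 such hosts were called higher in tumor against blood, where 23.2% of all genes were. Against bone marrow, 3 of the 10 were, beside 4284 of all 23861 genes, and 0 were called lower in either comparison.

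Protein-coding snoRNA hosts were mostly called higher in tumor against blood. Against blood, 25 of 32 tested were called higher in tumor and 0 lower, beside 28.1% and 34.5% of all genes. The median log2 fold change was 1.14 beside -0.17 for all genes. Examples were Hspa9, a mitochondrial chaperone (3.60 ± 0.18, SE), the ribosomal protein gene Rpl12 (3.40), and Nop56 (2.56), a core protein of C/D snoRNPs. Against bone marrow, 12 of 32 were called higher and 0 lower (median 0.48), beside 22.4% and 32.9% of all genes. With plain library totals, 22 of 32 were called higher (median 0.94), where 33.1% of all genes were. In blood against bone marrow, 14 of 32 were called lower and 0 higher, beside 23.6% and 20.6% of all genes. Many of the 32 are ribosomal protein genes, which are counted again below.

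Most genes of the proteins that assemble with snoRNAs were called higher in tumor against blood. Nop56 and Dkc1 among them are also coding hosts. Of 11 snoRNP genes tested, out of 18 listed, 10 were called higher in tumor against blood and 0 lower (median 2.64), beside 28.1% and 34.5% of all genes. Against bone marrow, 7 were called higher and 1 lower (Pih1d1, -1.01), with a median of 1.00, beside 22.4% and 32.9% of all genes. In blood, 11 of 11 were called lower than in bone marrow (median -1.75), beside 23.6% of all genes. The filter shaped these snoRNP counts, since 3 of the 11 (Nop58, Ruvbl1 and Fbl) passed it only with the tumor libraries. With no filter, 16 of the 18 were called higher against blood, where 23.2% of all genes were, and 6 higher and 1 lower against bone marrow, where 4284 of all 23861 genes were called higher. Of the genes that passed it otherwise, Nolc1, a snoRNP chaperone, was 3.54 higher in tumor than in blood on the log2 scale and Nhp2, of H/ACA snoRNPs, 3.03. Nop58, the other scaffold protein of C/D snoRNPs, was 4.18 ± 0.44 (SE) higher in tumor than in blood on the log2 scale (limma, adjusted p = 9.9e-05, or 0.000117 with no filter). Ruvbl1, an assembly ATPase, had a value of 3.21. In blood against bone marrow, the differences of the hosts were -0.08 for Gas5, 0.0011 for Snhg5 and 0.35 for Snhg8, with 0 of these called, and -1.82 for 1110038B12Rik.

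Genes of ribosomal RNA synthesis and processing were called higher in tumor in 12 of 17 cases against blood and lower in 1 (Utp14a, -1.19). Over all genes the shares were 28.1% and 34.5%, and 3 of the 17 passed the filter only with the tumor libraries. Against bone marrow, 11 were called higher and 2 lower (Utp14a, -0.92, and Polr1a, -1.23), beside 22.4% and 32.9% of all genes. Dkc1, Fbl and Ncl are also in the lists of snoRNP genes or coding hosts. Myc, a transcription factor for ribosome genes, was 4.26 ± 0.53 (SE) higher in tumor than in blood (limma, adjusted p = 0.00024) and Npm1, a nucleolar chaperone, 3.49. Of 74 ribosomal protein genes tested, 41 were called higher in tumor against blood and 3 lower (Rps9, Rpl37 and Rps27a, -1.55 to -0.70). The median was 0.78, and 28.1% and 34.5% of all genes were called higher and lower. Against bone marrow, 15 were called higher and 2 lower (Rps9 and Rps27a, -1.01 and -1.09), beside 22.4% and 32.9% of all genes. With plain library totals, 58 were called higher against blood (37.1% of all genes) and 35 against bone marrow (33.1%), and with no filter 9 of 81 against bone marrow, so that the counts depend on both choices.

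For the protein partners of the nuclear RNAs, the calls against blood stand beside 28.1% higher and 34.5% lower over all genes. Of 13 paraspeckle genes tested, 4 were called higher in tumor against blood and 0 lower: Nudt21 (1.40) and Cpsf6 (0.79), of the cleavage factor that acts in polyadenylation, Tardbp (0.84) and Rbm14 (0.83). Against bone marrow, 1 was called higher (Tardbp, 0.68). Of 13 nuclear speckle genes, 5 were called higher and 3 lower in tumor against blood, and the higher were the splicing factors Srsf3 (1.44) and Srsf1 (0.95), Pnn (0.89), Nktr (0.85) and Srrm1 (0.50). The lower were the speckle scaffold gene Son (-1.11), Acin1 (-1.04) and the spliceosome gene Sf3b1 (-0.49). Under plain library totals these counts against blood became 11 higher and 0 lower for paraspeckle genes and 8 higher and 1 lower for speckle genes, where 37.1% of all genes were called higher, so that both counts depend on the scaling.

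Nonsense-mediated decay, the route by which spliced host RNAs are degraded, had calls in both directions, at shares against blood near those of all genes. Of 11 genes tested, 4 were called higher in tumor against blood, the release factor gene Etf1 (1.74 ± 0.14, SE), Smg5 (1.11), Rbm8a (0.73) and Rnps1 (0.58), and 3 lower (Smg8, -0.98, Casc3, -0.80, and Smg1, -0.76). Under plain library totals, 5 were called higher and 0 lower against blood. Against bone marrow, 2 were called higher (Etf1, 1.36, and Rnps1, 0.65) and 2 lower (Smg8, -1.63, and Smg9, -2.12). A further list held 8 tested genes of the mTOR pathway and of RNA-binding proteins that act on pyrimidine tract mRNAs. In tumor against blood, 3 were called higher (Mlst8, 2.72, Cnbp, 0.95, and Tia1, 0.68) and 2 lower (Eif4ebp2, -2.11, and Eif4ebp1, -1.77). Against bone marrow, 1 was called higher (Cnbp, 1.515) and 3 lower (Mlst8, -2.63, Eif4ebp2, -1.71, and Eif4ebp1, -0.81). Mlst8 had its lowest mean in blood. Over all genes, 28.1% were called higher and 34.5% lower against blood, and 22.4% and 32.9% against bone marrow.

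Other nuclear lncRNAs were followed as a comparison for Malat1 and Neat1. Of 18 with a row, 4 were tested. Dleu2 was called lower in tumor against blood (-1.87 ± 0.34, SE; limma, adjusted p = 0.00171), and also when bone marrow was the reference (-1.23, adjusted p = 0.0156). Mir22hg, the host of miR-22, was called higher in blood against bone marrow (1.11, adjusted p = 0.00645) and in tumor against bone marrow (0.73, adjusted p = 0.0293), as Malat1 was, and Mir17hg, the host of the miR-17 cluster, was called higher in the same comparisons (2.15 and 2.64). Tug1 was called in no comparison. Of the untested, Kcnq1ot1 held 291 to 532 reads in tumor and 25 to 87 elsewhere, and Airn 34 to 49 and at most 4. In contrast, 2210408F21Rik held 6 to 11 in tumor and 0 to 9 in blood. With no filter, 3 of 17 nuclear lncRNAs were called higher in tumor against blood and 1 lower, where 23.2% of all genes were called higher. Against bone marrow, 5 were called higher and 1 lower, beside 4284 of all 23861 genes called higher. Of the genes of nuclear RNA decay and RNase P, the enzyme that trims the Malat1 end, 12 were tested. Against blood, 6 were called higher in tumor and 2 lower, beside 28.1% and 34.5% of all genes. Of the 6, 3 (Exosc2, Rpp14 and Xrn2) passed the filter only through the tumor libraries, so that their calls are no support. With no filter, 14 of 25 were called higher and 2 lower, where 23.2% of all genes were called higher. The log2 fold changes were 2.36 for Exosc8, 2.28 for Exosc2 and 1.84 for the RNase P gene Rpp14. The lower were Rpp21 (-1.56), another RNase P gene, and Zcchc8 (-1.34), of an adaptor complex of the nuclear exosome. Against bone marrow, 5 were called higher (Exosc2, Rpp14, Xrn2, Exosc5 and Rbm7), beside 22.4% of all genes. There, 2 were called lower (Rpp21 and Zcchc8), beside 32.9%.

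**Figure D5:**
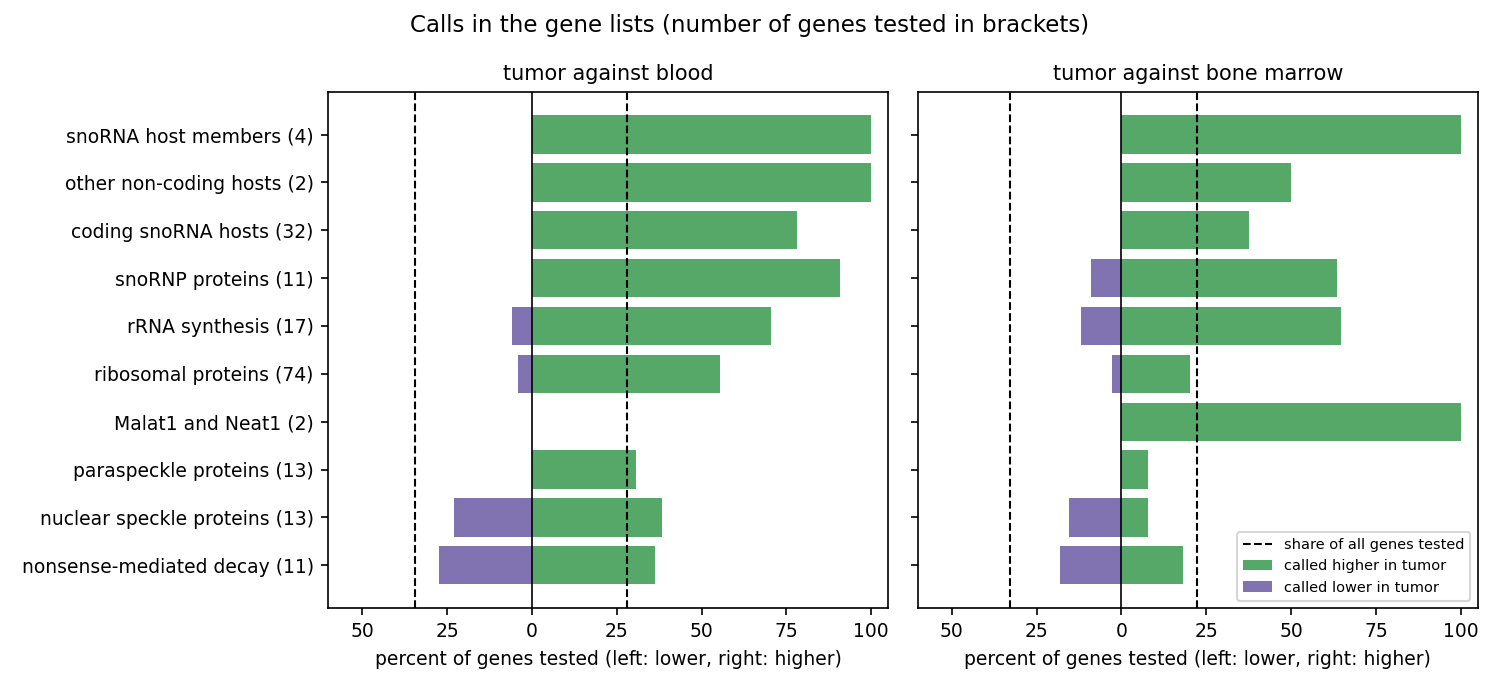
Share of the genes tested in each list (y axis, number tested in brackets) that were called higher (right) or lower (left) in tumor, in percent (x axis), against blood and against bone marrow; dashed lines give the shares of all genes tested. Some genes passed the filter only through the tumor libraries, so the bars that hold them are no support. They were 1 of 4 snoRNA host members, 1 of 2 other non-coding hosts and 3 of 11 snoRNP genes. The rRNA synthesis list held 3 such genes and the ribosomal protein list 4, and the other lists shown held 0. The bars of the snoRNA hosts, coding and non-coding, and of snoRNP genes pass the dashed line for higher calls (28.1% and 22.4%) in both panels, whereas those of paraspeckle and speckle genes lie near it against blood and below it against bone marrow.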

How the data were processed

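The authors sequenced 9 SMARTSeq v2 libraries and, per the study's methods and processing notes, mapped reads to GRCm38 with STAR 2.5.2b, counted them with featureCounts 1.5.0 on GENCODE M7 and deposited log2 FPKM values made with edgeR 3.8.6. Whole reads were recovered from these log2 values for all 46517 genes (tolerance 1e-05 reads, largest distance 9.08e-09). A constant of 0.143 to 0.287 reads, scaled to the library size, had been added before the log, and gene length was the genomic span for 84.5% of the genes found in GENCODE M21. Log2 fold changes and adjusted p-values are from limma 3.58.1 in R 4.3.3 (intensity trend, Benjamini-Hochberg over 7794 genes, all 9 libraries), tested on simulated data. Fold changes of low genes are understated by the constant, and reads were not corrected for PCR duplicates. Replicates were pools of mice. The members and gene lists were chosen with earlier results of these data known. All members were named, with up to 4 genes per list (largest tumor against blood change) and those in counts of 5 or fewer. The alternatives covered filters, constants, normalization, variance models, limma-voom, the replicate block and left-out libraries.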

Additional observations from a re-analysis of the deposited data

How the results depend on the processing

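The 6 members were refitted in 22 settings per comparison. Of 396 such values, 369 stayed on the same side of the threshold (9 of them with the other sign, none of those called), 24 lost the call, 3 gained it and 0 reversed a call. Calls of Gas5, Snhg5 and 1110038B12Rik in both tumor comparisons and of Snhg8 against bone marrow held in every setting. The number of members called higher in blood against bone marrow (1) ranged from 0 to 1 with single libraries left out, as did the number called lower, which was also 0 with limma-voom.

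Over all genes, calls in tumor against blood numbered 4880, and 8963 with no filter, 9314 with a filter on reads, 9759 with limma-voom and 2562 with a stricter filter, which test 23861, 17714, 17714 and 3514 genes. In tumor against bone marrow they numbered 4311, and 7351, 7734, 8914 and 2378 in these settings. In blood against bone marrow they numbered 3446, and 5361 with limma-voom and 1924 with the stricter filter. Plain library totals turned the split in tumor against blood from 2194 higher and 2686 lower to 2892 and 1916, and against bone marrow from 1745 and 2566 to 2580 and 1654.

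The sample titles number the libraries but do not say whether equal numbers mark the same pool of mice. Libraries with the same number in different compartments deviated from their means with correlations of -0.0714 to 0.108. With 3 libraries per compartment, such values cannot show that the compartments are unpaired. The main fit did not take the numbers as pairs. With the replicate block, 1 member call was lost, Snhg8 in tumor against blood (0.92, adjusted p = 0.0664), and all genes called in that comparison numbered 4851. Depth limits Snhg12 most, followed by 1110038B12Rik in blood.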
